A study of Mus musculus with 6 samples.

Results

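The genes that make cholesterol and isoprenoids were followed in cultured mouse satellite cells (SCs), the stem cells of skeletal muscle. Members were all genes that the deposited table annotates to the KEGG pathways of steroid biosynthesis or terpenoid backbone biosynthesis. There were 43 such genes among the 55416 in the table, 20 with the steroid annotation, 23 with the terpenoid annotation and 0 with both. RNA was sequenced from 3 libraries of wild-type (WT) SCs and 3 libraries of SCs from lactoferrin knockout (*Ltf*-KO) mice. The knockout is systemic, made with CRISPR/Cas9 in C57/BL6N mice, so every cell type of the donor carried it. SCs were sorted from hind leg muscle as Sca1-, CD11b-, CD34+ and α7-integrin+ cells and grown on Matrigel for 4 days with 20% fetal bovine serum, chick embryo extract and basic fibroblast growth factor, with no further treatment. Both genotypes had the same medium, whose serum is itself a source of cholesterol. The mice were 8 to 10 weeks old by default. The labels do not say whether the 3 libraries of a genotype came from separate animals, so p-values measure only the spread between these libraries, which may be technical.

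Levels are TPM, a transcript abundance in which reads are divided by gene length and each library is scaled to one total, so levels of different genes can be set side by side but the read depth is unknown. The libraries summed to between 993650 and 994356 TPM and held 12828 to 12951 genes at 1 TPM or more. *Ltf* itself was at 0.12, 0.02 and 0.02 TPM in WT and at 0.02, 0.03 and 0.00 TPM in *Ltf*-KO libraries, near the floor in both, so it does not check the genotype labels here. Markers of the myogenic lineage were all present, with *Myod1*, a master regulator of muscle cells, at 748 to 816 TPM and *Pax7*, the defining SC factor, at 36.6 to 43.3 TPM. Of the macrophage markers, *Ptprc* and *Adgre1* stayed at or below 0.16 TPM and *Cd68*, which other cells also express, was at 3.12 to 3.98 TPM. The 4 adipocyte markers stayed at or below 0.41 TPM. Fibroblast and endothelial markers were present at unlike levels. Of the fibroblast markers, *Col3a1* was highest at 88.00 to 117.69 TPM and *Col1a2* next at 13.30 to 19.89 TPM. *Pdgfra* was at 1.00 to 1.90 TPM and *Lum* lowest at 0.11 to 0.37 TPM. Endothelial markers ran from *Tek* at 0.21 to 0.81 TPM to *Cdh5* at 1.79 to 4.97 TPM.

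Cholesterol is built from acetyl-CoA. The mevalonate branch turns acetyl-CoA into isopentenyl diphosphate, the unit of all isoprenoids. Isopentenyl units are joined into farnesyl and geranylgeranyl diphosphate, which feed squalene and then cholesterol, but also dolichol, the side chain of ubiquinone, and the lipid anchors of Ras proteins and of nuclear lamins. When sterol in the endoplasmic reticulum is low, the transcription factor SREBP2 (*Srebf2*) is cut free and switches on most genes of the route to cholesterol. SREBP2 acts at promoters beside NF-Y, which binds the letters CCAAT.

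Promoter windows from 250 bases before to 50 bases after the annotated start were taken from RefSeq on GRCm38.p6 for 32 of the 43 members. Expressed members without a window included *Fdps*, *Sqle*, *Fdft1*, *Acat1* and *Fnta*. The expression files used GRCm39, so these coordinates are those of the reference windows only. Hmgcs1, whose enzyme makes HMG-CoA, is shown because its window alone among the members held both motifs searched. Mvk (mevalonate kinase), Msmo1 (a methylsterol oxidase) and Lbr (a sterol reductase and nuclear envelope protein) are shown because these 3 genes ranked the 6 libraries in one and the same order, as described further on. The windows lie at chr13:119690101-119690400 on the plus strand for Hmgcs1, chr5:114444019-114444318 on the plus strand for Mvk, chr8:64733529-64733828 on the minus strand for Msmo1 and chr1:181842352-181842651 on the minus strand for Lbr. Each is written 5′ to 3′ on the strand of its gene, and capitals mark CCAAT, its reverse complement ATTGG, and in Hmgcs1 also CACCCCAC, a match to the sterol element letters CACNCCAC.
Hmgcs1: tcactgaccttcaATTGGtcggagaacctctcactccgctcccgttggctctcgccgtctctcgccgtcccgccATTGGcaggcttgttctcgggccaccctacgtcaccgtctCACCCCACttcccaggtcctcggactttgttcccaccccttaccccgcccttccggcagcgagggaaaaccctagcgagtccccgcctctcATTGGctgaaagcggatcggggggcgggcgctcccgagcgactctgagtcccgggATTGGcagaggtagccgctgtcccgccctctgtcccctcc
Mvk: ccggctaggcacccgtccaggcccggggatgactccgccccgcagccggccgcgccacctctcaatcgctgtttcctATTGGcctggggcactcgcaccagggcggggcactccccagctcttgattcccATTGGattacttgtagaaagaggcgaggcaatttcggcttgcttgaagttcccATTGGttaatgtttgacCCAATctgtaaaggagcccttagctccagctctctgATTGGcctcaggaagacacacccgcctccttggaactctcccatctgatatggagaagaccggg
Msmo1: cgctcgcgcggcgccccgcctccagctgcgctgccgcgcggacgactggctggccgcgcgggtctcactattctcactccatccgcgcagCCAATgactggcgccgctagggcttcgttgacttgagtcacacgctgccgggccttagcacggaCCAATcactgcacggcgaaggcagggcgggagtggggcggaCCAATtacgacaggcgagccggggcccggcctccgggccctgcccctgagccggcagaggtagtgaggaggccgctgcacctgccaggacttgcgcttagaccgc
Lbr: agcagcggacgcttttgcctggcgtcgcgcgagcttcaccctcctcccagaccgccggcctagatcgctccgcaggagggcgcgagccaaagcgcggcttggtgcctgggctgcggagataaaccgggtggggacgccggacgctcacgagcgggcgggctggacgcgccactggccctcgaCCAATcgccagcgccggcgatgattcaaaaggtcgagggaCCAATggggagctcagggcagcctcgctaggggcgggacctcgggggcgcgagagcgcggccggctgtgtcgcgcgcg

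CCAAT was searched on both strands, and it was present 4 times in the Hmgcs1 window, 5 times in Mvk, 3 times in Msmo1 and 2 times in Lbr. Members at 1 TPM or more had 32 windows for 28 genes, and 22 of these windows (68.8%) held CCAAT, against 37.4% of all 32851 promoter windows and 37.8% of the 12320 windows of genes at 1 TPM or more. At least 2 matches stood in 40.6% of the members' windows, in 11.7% of all windows and in 14.5% of the windows of genes at 1 TPM or more. CACNCCAC, also searched on both strands, was found in 3 of the 32 windows (9.38%), those of *Acat2*, *Hmgcs1* and *Icmt*. The share was 6.24% of all windows and 6.31% of the windows of genes at 1 TPM or more. The 2 motifs share the letters CCA but can overlap by no more than 1 letter. These matches describe the letters of the windows and were not tested.

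The whole route from acetyl-CoA to cholesterol was expressed in SCs. Of the 43 members, 35 averaged 1 TPM or more, and 34 of these stood between 10 and 99 TPM. The highest was *Fdps* (ENSMUSG00000059743), farnesyl diphosphate synthase, which makes the branch-point isoprenoid, at 104.78, 98.62 and 92.50 TPM in WT and 96.10, 97.38 and 102.18 TPM in *Ltf*-KO libraries. This placed it at percentile 89.1 of the 12956 genes at 1 TPM or more. The lowest was *Tm7sf2*, a sterol reductase, with a mean of 4.83 TPM, at percentile 23.3. Summed over the 43 members, each library held between 1025 and 1046 TPM, with 1039 ± 9.29 TPM (SD, n = 3) for WT against 1034 ± 9.50 TPM (SD, n = 3) for *Ltf*-KO SCs.

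The other 8 members lay below 1 TPM, and most are relatives that other tissues use. *Idi2*, the second isopentenyl diphosphate isomerase, was at 0 to 0.06 TPM against 36.74 to 44.67 TPM for *Idi1*. *Gm9745*, whose row in the table cites the same protein as *Idi2*, was above 0 in 1 library only, at 0.10 TPM. *Soat2*, the cholesterol esterifying enzyme of intestine and liver, was at 0.03 to 0.26 TPM and its widely expressed relative *Soat1* at 77.48 to 98.57 TPM. The pancreatic lipase gene *Cel* was listed at 0 in all 6 libraries. The 3 vitamin D hydroxylases *Cyp2r1*, *Cyp27b1* and *Cyp24a1*, which share the steroid annotation, lay between 0 and 0.29 TPM.

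**Figure D1:**
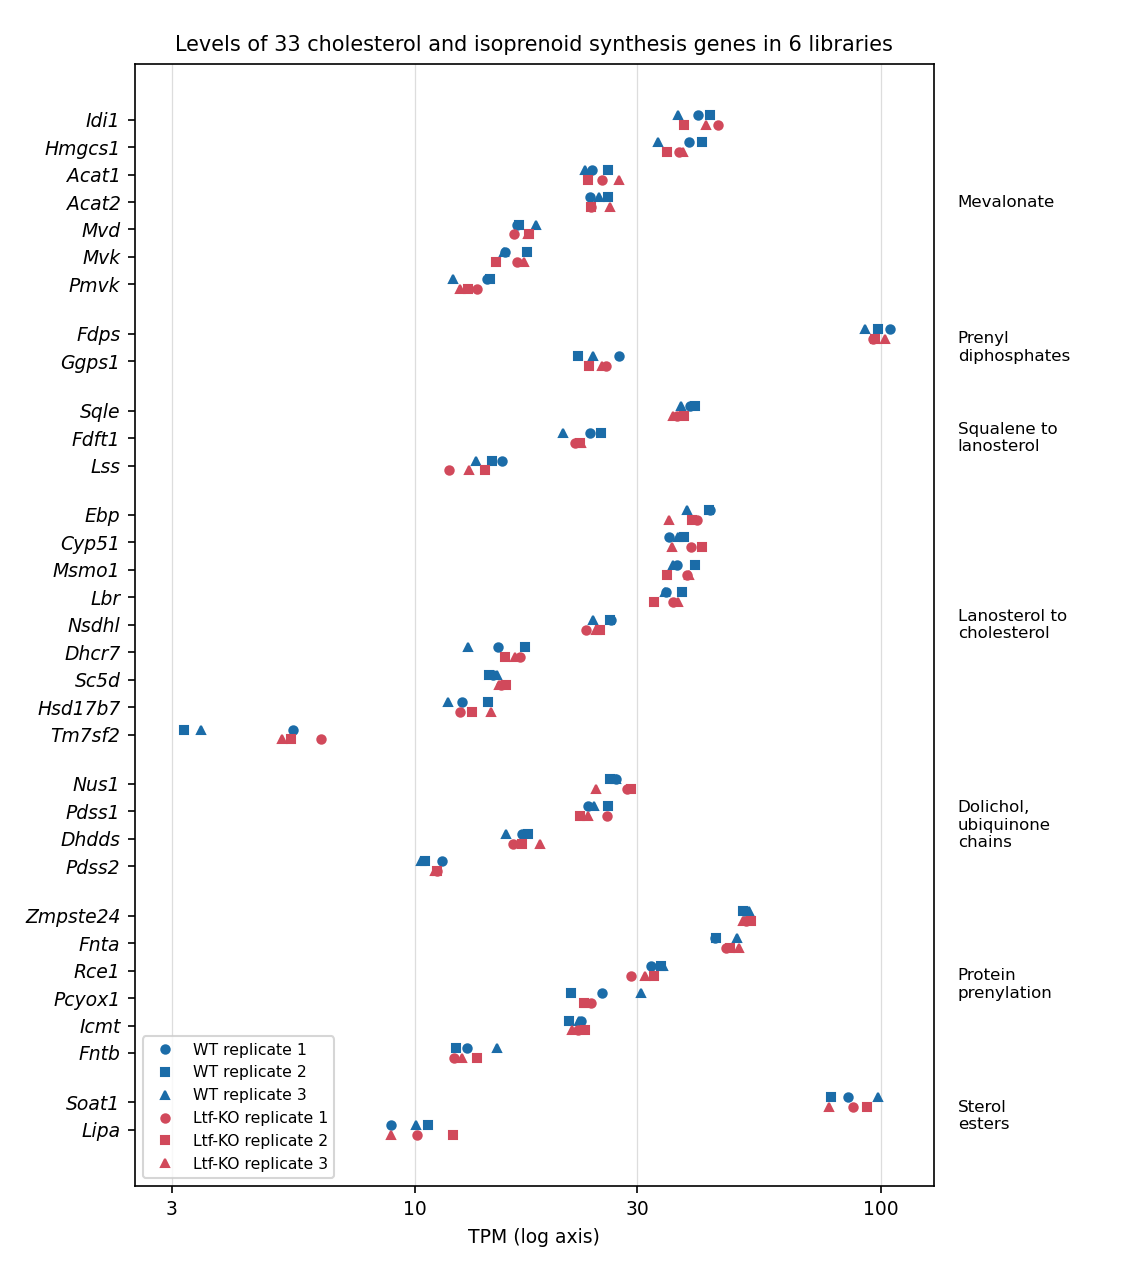
TPM on a log axis of 33 of the 35 members at 1 TPM or more, grouped by step of the pathway, with 1 symbol per library and colour for genotype. The ranges of the genotypes overlap in every row but that of *Sc5d*, and *Fdps* and *Soat1* stand to the right of all other members while *Tm7sf2* stands to the left.

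The mevalonate branch had 8 expressed members, with means from 13.3 TPM (*Pmvk*, phosphomevalonate kinase) to 40.8 TPM (*Idi1*). *Idi1* (ENSMUSG00000058258), which makes the reactive isomer of isopentenyl diphosphate, was at 40.49, 42.91 and 36.74 TPM in WT and 44.67, 37.73 and 42.22 TPM in *Ltf*-KO libraries. *Hmgcs1* (ENSMUSG00000093930), which makes HMG-CoA, was at 38.80, 41.26 and 33.28 TPM in WT and 36.87, 34.79 and 37.53 TPM in *Ltf*-KO libraries. The genotypes overlapped for both genes, with *Hmgcs1* highest in WT replicate 2 and lowest in WT replicate 3. The thiolases *Acat1* and *Acat2*, which join acetyl-CoA units in mitochondria and cytosol, had means of 24.8 and 24.7 TPM. *Mvd* and *Mvk*, a decarboxylase and a kinase of mevalonate, had means of 17.1 and 16.2 TPM.

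At the branch point, *Fdps* exceeded *Ggps1*, which extends farnesyl to geranylgeranyl diphosphate, by 3.74 to 4.42 times within each library. *Ggps1* lay between 22.33 and 27.45 TPM. On the way into sterols, *Sqle* (ENSMUSG00000022351), the squalene epoxidase and a control point of the pathway, was at 38.92, 39.93 and 37.21 TPM in WT and 36.59, 37.85 and 35.85 TPM in *Ltf*-KO libraries. The genotypes overlapped through WT replicate 3. *Fdft1*, which makes squalene, had a mean of 22.8 TPM and *Lss*, which closes the ring of lanosterol, a mean of 13.7 TPM.

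The 10 genes from lanosterol to cholesterol stood at a range of levels. *Ebp*, the sterol isomerase, *Cyp51*, the lanosterol demethylase, *Msmo1* and *Lbr* had means of 35.2 to 39.8 TPM. *Ebp* (ENSMUSG00000031168) was the highest, at 43.03, 42.83 and 38.27 TPM in WT and 40.22, 39.32 and 35.15 TPM in *Ltf*-KO libraries, and its genotypes overlapped. *Nsdhl*, a sterol dehydrogenase, was at 24.9 TPM on average, and *Dhcr7*, the last reductase before cholesterol, *Sc5d*, the sterol desaturase, and *Hsd17b7*, a ketoreductase, had means of 13.2 to 15.7 TPM. *Lbr* and *Tm7sf2* both encode enzymes with sterol reductase activity at the same step, and *Lbr* was the higher in every library, by 5.72 to 11.7 times.

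Members that use isoprenoids elsewhere were expressed over a similar range. *Nus1* and *Dhdds*, the subunits of the enzyme that builds dolichol, had means of 27.1 and 16.97 TPM, and *Nus1* (ENSMUSG00000023068) was at 27.02, 26.26 and 27.06 TPM in WT and 28.53, 29.10 and 24.44 TPM in *Ltf*-KO libraries. *Pdss1* and *Pdss2*, which make the ubiquinone side chain, had means of 24.3 and 10.9 TPM. *Zmpste24* (ENSMUSG00000043207), the protease that matures prelamin A, was at 50.86, 50.71 and 52.18 TPM in WT and 51.24, 52.65 and 50.53 TPM in *Ltf*-KO libraries. It had the narrowest range of all 35 members, with a highest library 1.04 times the lowest. *Fnta*, the subunit shared by the enzymes that attach farnesyl and geranylgeranyl groups, exceeded *Fntb*, the other subunit of farnesyltransferase, by 3.27 to 3.93 times within each library. *Rce1* and *Icmt*, which trim and methylate prenylated proteins, had means of 32.2 and 22.3 TPM, and *Pcyox1*, which breaks down prenylcysteine, 24.6 TPM.

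Among the sterol ester genes, *Soat1* (ENSMUSG00000026600), which stores cholesterol as esters, was at 84.95, 78.14 and 98.57 TPM in WT and 87.28, 93.39 and 77.48 TPM in *Ltf*-KO libraries. WT replicate 3 and *Ltf*-KO replicate 2 were the highest and the genotypes overlapped. *Lipa*, the lysosomal acid lipase that releases cholesterol from esters, was at 8.89 to 12.03 TPM, so that *Soat1* exceeded it by 7.35 to 9.84 times. Ordered by mean level, 28 of the 34 neighbouring pairs of members had overlapping ranges over the 6 libraries. The 6 gaps in this order lay between *Soat1* and *Zmpste24*, *Zmpste24* and *Fnta*, *Rce1* and *Nus1*, *Icmt* and *Mvd*, *Fntb* and *Pdss2*, and *Lipa* and *Tm7sf2*.

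**Figure D2:**
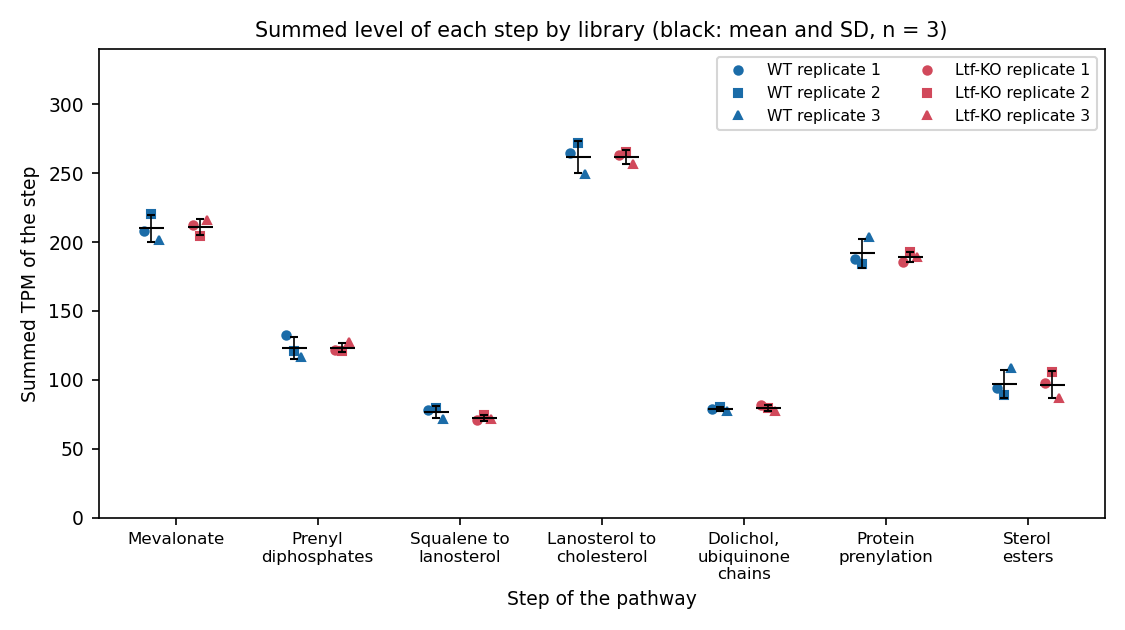
TPM summed over the genes of each step, with 1 symbol per library, colour for genotype, and the mean and SD (n = 3) in black. Sums of the genotypes overlap at all 7 steps, and the lanosterol to cholesterol step is the highest at 249 to 272 TPM. The steps hold unlike numbers of genes, such as 10 in this step and 2 in prenyl diphosphates, so sums do not rank the level per gene.

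Whether loss of *Ltf* moved these genes was tested with limma on log2(TPM + 1) across all 12956 genes at a mean of 1 TPM or more, with Benjamini-Hochberg adjustment. No member passed the test. Of the 35 members, 0 had an unadjusted p under 0.05, where 490 of all tested genes (3.78%) did, 260 higher and 230 lower in *Ltf*-KO SCs. At that share a list of 35 would hold about 1 gene, so the count of 0 is near the background. At an adjusted p under 0.05 there were 0 members and 0 of all genes (0.0%), and every member had a limma adjusted p of 0.999. In *Ltf*-KO SCs 18 members were higher and 17 lower (51.4% higher, against 55.7% of all genes), and the median log2 fold change was 0.000177 for members and 0.011 for all genes. In bulk RNA, a change in the share of cells that express a gene and a change in its RNA per cell cannot be told apart.

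The intervals show how large a difference these libraries could have missed. The 95% interval of the fold change lay within 1.25-fold in both directions for 30 of the 35 members, against 58.4% of all genes. It lay within 1.5-fold for 34 members (97.1%, against 84.5% of all genes) and within 2-fold for all 35 (against 94.6%). These shares were not matched for level. All tested members but *Tm7sf2* averaged 10 TPM or more, while 8072 of the 12956 tested genes did. The exceptions at 1.25-fold were *Lss*, *Dhcr7*, *Tm7sf2*, *Pcyox1* and *Lipa*, and at 1.5-fold only *Tm7sf2*. Members at 10 to 99 TPM had a median coefficient of variation within genotypes of 6.02%, and the 6630 other genes in that range had 5.90%, so the members were about as reproducible as other genes of their level. For *Sqle* the log2 fold change was -0.07 (95% interval -0.18 to 0.04) and for *Fdps* 0.00 (-0.13 to 0.13).

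**Figure D3:**
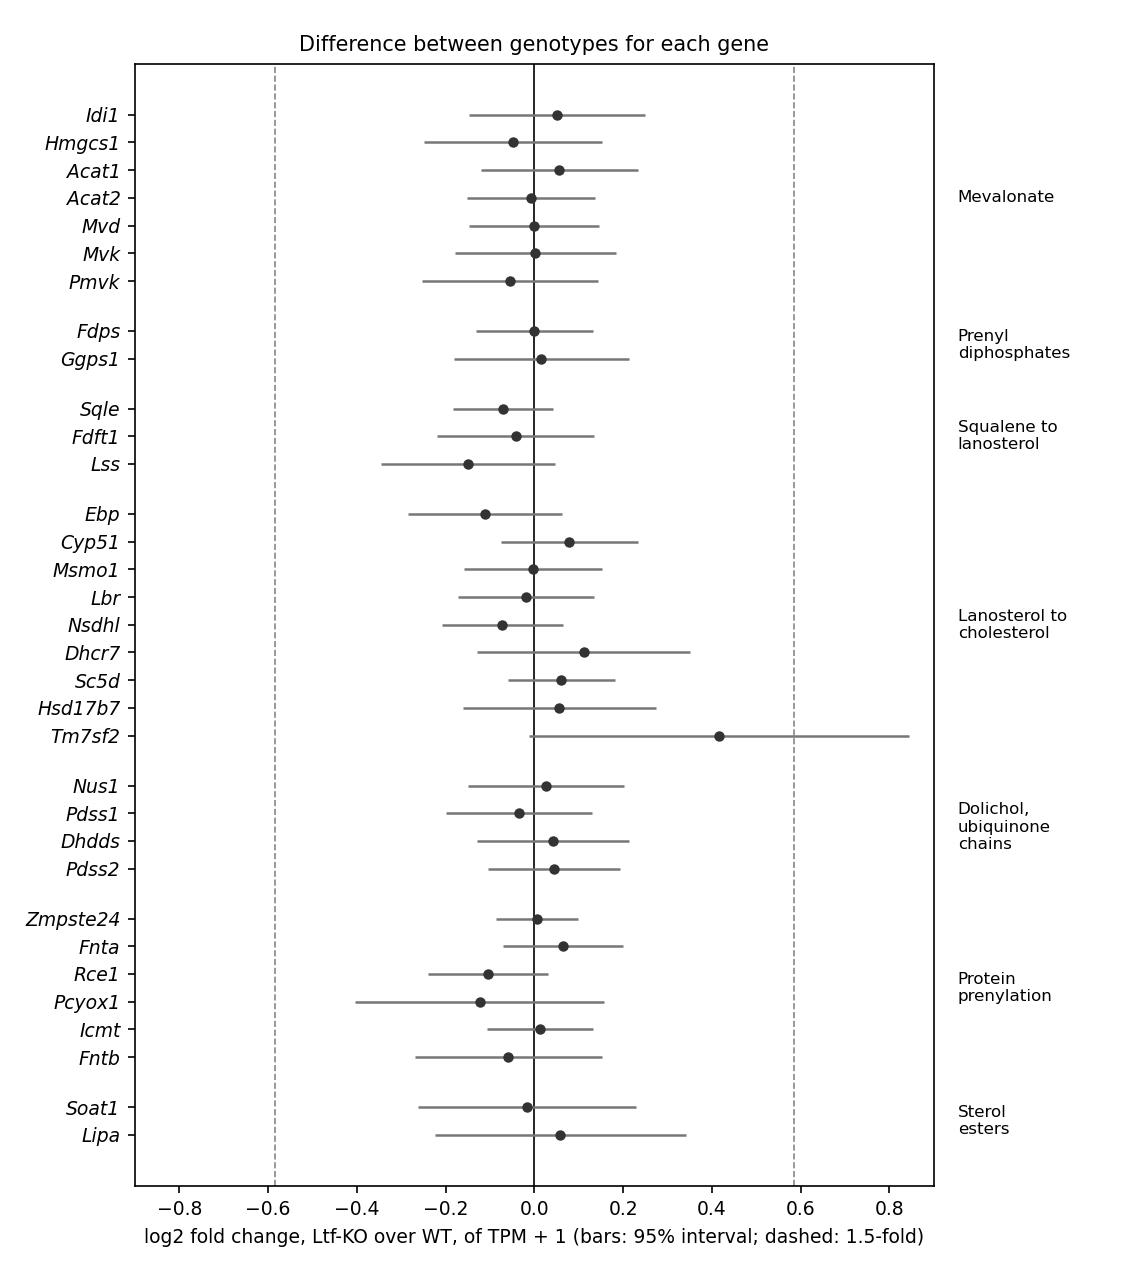
Log2 fold change of TPM + 1, *Ltf*-KO over WT, for 33 of the 35 tested members, with 95% intervals from limma as bars and dashed lines at 1.5-fold in either direction. Every interval includes 0, and only that of *Tm7sf2*, which runs from -0.01 to 0.84, reaches past a dashed line.

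*Tm7sf2* (ENSMUSG00000024799) came closest to a difference and was chosen for description after its values were seen. It was at 5.47, 3.19 and 3.47 TPM in WT and 6.26, 5.42 and 5.18 TPM in *Ltf*-KO libraries. WT replicates 2 and 3 lay below every *Ltf*-KO library, while WT replicate 1 lay above 2 of them. The log2 fold change was 0.42 (standard error 0.178, 95% interval -0.01 to 0.84, limma adjusted p = 0.999). The value depended on single WT libraries. Without WT replicate 1 it was 0.61 and passed the unadjusted threshold (limma adjusted p = 1), without WT replicate 2 it was 0.30 and without WT replicate 3 it was 0.34, neither past that threshold. *Lbr*, which has the same enzyme activity, had a log2 fold change of -0.02 (95% interval -0.17 to 0.14), and the ratio of *Lbr* to *Tm7sf2* was 9.32 ± 2.76 (SD, n = 3) in WT and 6.27 ± 0.726 (SD, n = 3) in *Ltf*-KO SCs.

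The next smallest p-values among the members belonged to *Rce1* (log2 fold change -0.10, 95% interval -0.24 to 0.03) and *Lss* (-0.15, 95% interval -0.35 to 0.05), both lower on average in *Ltf*-KO SCs and both named after their values were seen. Without *Ltf*-KO replicate 1 the value of *Rce1* was -0.06. *Lss* was at 15.35, 14.65 and 13.52 TPM in WT and 11.84, 14.09 and 13.04 TPM in *Ltf*-KO libraries. *Ltf*-KO replicate 1 was the lowest library and the genotypes overlapped, with a log2 fold change of -0.09 without that library. Complete separation of the 3 WT from the 3 *Ltf*-KO libraries occurred for 1 of the 35 members, against 8.46% of all tested genes. This was *Sc5d*, at 14.67, 14.39 and 14.97 TPM in WT and 15.30, 15.66 and 15.10 TPM in *Ltf*-KO libraries, a log2 fold change of 0.06 (95% interval -0.06 to 0.18). *Pcyox1* was at 25.19, 21.66 and 30.61 TPM in WT and 23.81, 23.08 and 23.30 TPM in *Ltf*-KO libraries, so its WT libraries spread over a wider range than its *Ltf*-KO libraries. Without WT replicate 2 its log2 fold change of -0.12 became -0.24 and passed the unadjusted threshold, and without WT replicate 3 it was 0.00.

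Genes that control or surround the pathway were described from 6 lists of 46 genes, of which 43 were at 1 TPM or more. Of these 43, 1 had an unadjusted p under 0.05, 32 were higher and 11 lower in *Ltf*-KO SCs, and 5 had libraries that did not overlap between genotypes. Over all tested genes, 3.78% had such a p, 55.7% were higher and 8.46% did not overlap. The lists were the SREBP machinery (7 genes tested, median log2 fold change 0.05), sterol uptake and transport (8 genes, 0.02), nuclear sterol receptors and efflux (3 of 6 genes tested, 0.02), fatty acid synthesis (9 genes, 0.00), sterol-linked protein degradation in the endoplasmic reticulum (6 genes, 0.03) and later steps of isoprenoid use (10 genes, 0.05). Only the protein degradation list had sums that did not overlap, at 498 ± 5.46 TPM (SD, n = 3) for WT against 513 ± 4.11 TPM (SD, n = 3) for *Ltf*-KO SCs, mostly from the general segregase gene *Vcp*. The exporters *Abca1* and *Abcg1*, which sterol-activated receptors switch on, were at 0.09 to 0.56 TPM.

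*Srebf2* was at 96.17, 90.58 and 94.48 TPM in WT and 93.63, 91.97 and 98.45 TPM in *Ltf*-KO libraries, a log2 fold change of 0.01 (95% interval -0.09 to 0.12). *Srebf1*, which favours fatty acid genes, was at 25.95 to 30.18 TPM, and *Srebf2* exceeded it by 3.26 to 3.54 times in each library. *Scap*, the escort that carries SREBPs to the Golgi, was at 29.22 to 33.71 TPM. These levels overlapped between the genotypes, as did those of *Insig1* (43.11 to 51.63 TPM) and *Insig2* (25.75 to 35.79 TPM), which hold Scap back when sterol is plentiful. Without WT replicate 2, *Insig2* had a log2 fold change of 0.25 and passed the unadjusted threshold, against 0.16 (95% interval -0.08 to 0.40) with all libraries, 0.07 without WT replicate 1 and 0.10 when *Ltf*-KO replicate 3 was left out.

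The 1 gene of the lists at an unadjusted p under 0.05 was *Mbtps2*, the site-2 protease that makes the second cut in SREBPs. It was at 18.99, 18.53 and 18.91 TPM in WT and 16.20, 17.71 and 17.12 TPM in *Ltf*-KO libraries, with every *Ltf*-KO library below every WT library. The log2 fold change was -0.14 (95% interval -0.27 to -0.01, limma adjusted p = 0.999). The unadjusted p stayed under 0.05 without *Ltf*-KO replicate 2 and did not without any other single library, where the log2 fold change was -0.11 to -0.15. *Mbtps1*, the site-1 protease that makes the first cut, had a log2 fold change of 0.07 (95% interval -0.06 to 0.19), and the 7 measured SREBP genes summed to 302 ± 4.28 TPM (SD, n = 3) for WT against 311 ± 7.82 TPM (SD, n = 3) for *Ltf*-KO SCs.

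The spread that the members did show ran between libraries of the same genotype. Of the 23 expressed members on the way to cholesterol (mevalonate, prenyl diphosphate, squalene and sterol steps), WT replicate 2 was above the gene's own mean for 18, while WT replicate 3 was above it for only 3. Over all 12956 tested genes, WT replicate 2 was above the gene's own mean for 6371 and WT replicate 3 for 6359. WT replicate 2 was the highest library for 8 of the 23 (34.8%, against 15.3% of all tested genes), and WT replicate 3 the lowest for 8 (34.8%, against 16.5%). The shifts were small, with a median deviation of 0.07 in WT replicate 2 and -0.05 in WT replicate 3 on the log2(TPM + 1) scale. The 12 other members, of the dolichol, prenylation and sterol ester steps, differed, with WT replicate 2 above the gene's own mean for 4 and WT replicate 3 for 9. This is a description of 6 libraries, found after their values were seen.

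*Mvk*, *Msmo1* and *Lbr*, whose promoter windows are printed above, ordered the libraries alike. *Mvk* was at 15.60, 17.38 and 15.49 TPM in WT and 16.51, 14.90 and 17.15 TPM in *Ltf*-KO libraries. *Msmo1* was at 36.59, 39.82 and 35.73 TPM in WT and 38.43, 34.70 and 38.76 TPM in *Ltf*-KO libraries. *Lbr* was at 34.53, 37.47 and 34.37 TPM in WT and 35.82, 32.50 and 36.75 TPM in *Ltf*-KO libraries. For all 3, WT replicate 2 was highest, then *Ltf*-KO replicates 3 and 1, WT replicates 1 and 3, and *Ltf*-KO replicate 2 lowest. This exact order was held by 3 of the 35 members and by 23 of the 12956 tested genes (0.178%). The order was picked after the values were seen, because these members shared it. A higher share among the members was therefore partly built in, and the counts are a description and not a test.

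**Figure D4:**
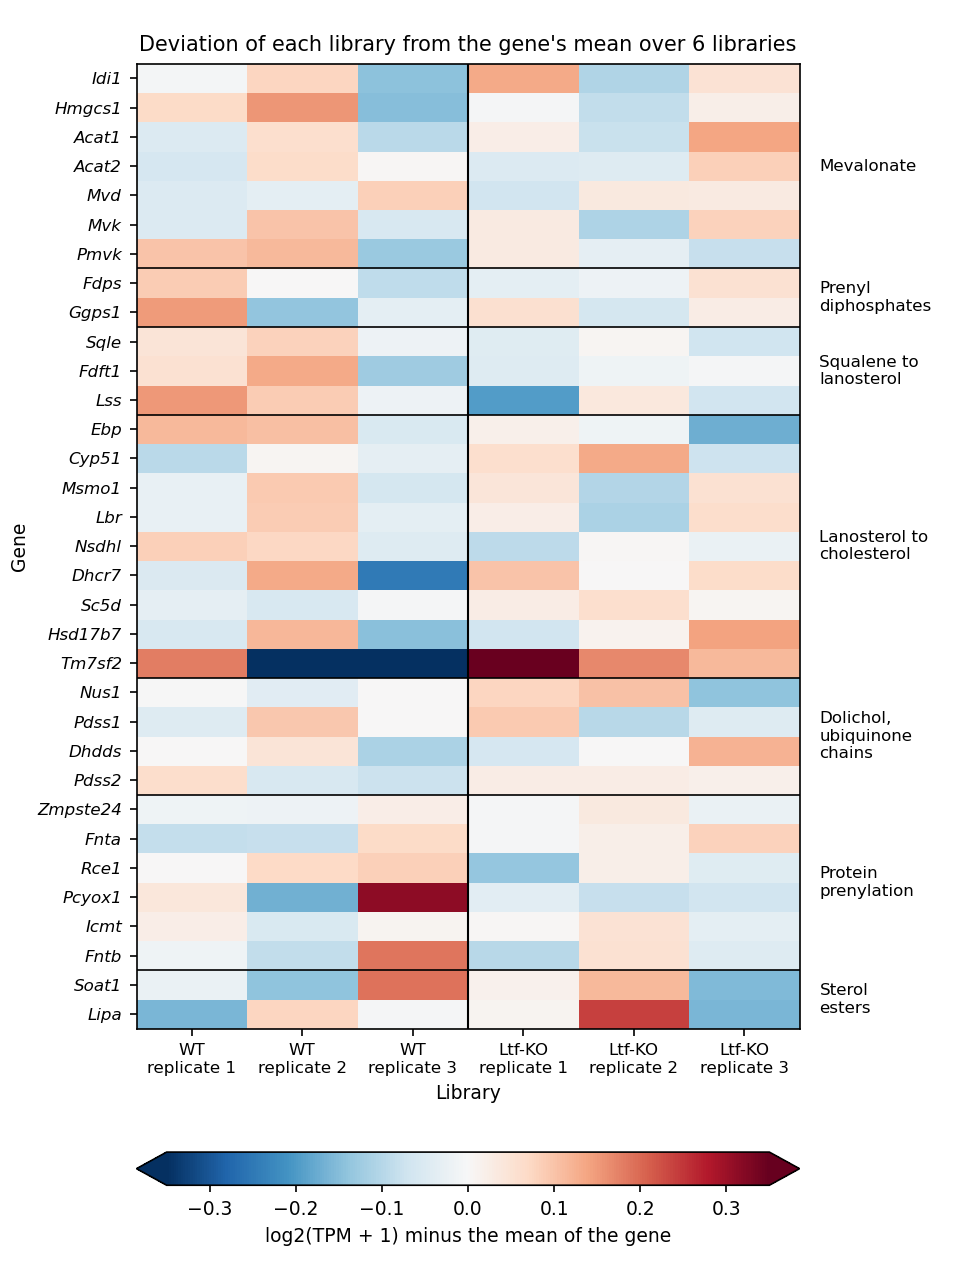
Deviation of log2(TPM + 1) in each library (columns) from the mean of the gene over the 6 libraries, for 33 of the 35 tested members (rows) in pathway order, with red above and blue below the mean and colours saturated beyond 0.35. WT replicate 2 is mostly red and WT replicate 3 mostly blue for the genes on the way to cholesterol, and no step is one colour in WT and the other in *Ltf*-KO libraries.

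Markers of differentiation and of other cell types also differed between these libraries. *Myog*, which marks myoblasts that leave the cell cycle to differentiate, was at 319.30, 410.31 and 293.44 TPM in WT and 360.37, 266.24 and 507.77 TPM in *Ltf*-KO libraries. Its 2 highest libraries, WT replicate 2 and *Ltf*-KO replicate 3, were also the highest for *Mvk*, *Msmo1* and *Lbr*, and its 2 lowest, WT replicate 3 and *Ltf*-KO replicate 2, were their lowest. This match was seen after the values were, and its share over all tested genes was not counted. *Acat1* also had these 2 highest and 2 lowest libraries. In contrast, *Hmgcs1* and *Fdft1* were highest in WT replicates 2 and 1, and *Idi1* and *Dhcr7* in WT replicate 2 and *Ltf*-KO replicate 1. The myogenic markers did not share one order. *Des*, *Cdh15*, *Itga7* and *Vcam1* had the same 2 highest libraries as *Myog*. *Myod1* (747.62 and 752.69 TPM) and *Myf5* (120.69 and 109.37 TPM) were lowest in WT replicate 2 and *Ltf*-KO replicate 3. *Pax7* was lowest in *Ltf*-KO replicate 3 and highest in *Ltf*-KO replicate 2. All 8 myogenic markers were at 1 TPM or more and together summed to 2172 to 2471 TPM. The 5 endothelial markers summed to 7.36, 5.68 and 14.22 TPM in WT and 11.48, 13.31 and 5.68 TPM in *Ltf*-KO libraries. Their 2 highest libraries, WT replicate 3 and *Ltf*-KO replicate 2, were those of *Soat1*, and WT replicate 2 and *Ltf*-KO replicate 3 were the lowest for both. This match with a single member was also picked after the values were seen, with no share counted over the members or all genes. The methods of the study list CD31, an endothelial surface protein, among the antibodies used before sorting, but not in the gate given for the collected cells. The part of these cells or states in the members' values was not tested.

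Sums of the remaining marker lists were small beside the myogenic one. The 7 fibroblast markers summed to 119 ± 1.89 TPM (SD, n = 3) for WT against 135 ± 19.9 TPM (SD, n = 3) for *Ltf*-KO SCs, with *Col3a1* the largest part of each sum. On average 6 of 6 tested were higher in *Ltf*-KO SCs, against 55.7% of all tested genes, with 0 at an unadjusted limma p under 0.05. Their median log2 fold change was 0.31, against 0.011 for all tested genes. The 4 Schwann cell markers summed to 16.62 to 25.43 TPM, and the 5 smooth muscle and pericyte markers to 40.75 to 49.68 TPM. Most of the latter sum was *Cspg4*, at 30.76 to 41.07 TPM, while *Myh11*, *Rgs5* and *Kcnj8* stayed at or below 0.62 TPM. The 5 macrophage markers summed to 3.21 to 4.26 TPM, nearly all *Cd68*, and the 4 adipocyte markers to 0 to 0.41 TPM. Of the 25 marker genes tested, 0 had an unadjusted limma p under 0.05, against 3.78% of all tested genes, a share at which about 1 of 25 would. The summed levels of all 7 marker lists overlapped between the genotypes.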

How the data were processed

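RNA of SCs cultured for 4 days was sequenced in 3 WT and 3 *Ltf*-KO libraries. The authors deposited TPM values with 2 decimals for 55416 genes, normalized by the manufacturer's protocol per the labels, and no counts were used. The submitters' processing notes name the build GRCm39. The aligner, counting tool and annotation are not given in the sources used here. Libraries were grouped by their labels, and the table held 0 other value columns.

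Members were the genes with either KEGG pathway in the deposited annotation. They, their steps and all lists were chosen with earlier results of these data known. The 12956 genes averaging 1 TPM or more were tested on log2(TPM + 1), a pseudocount of 1, which understates fold changes of low genes. The tool was limma 3.58.1 (R 4.3.3) with a variance trend, two-sided, with Benjamini-Hochberg adjustment over all tested genes and a threshold of 0.05. The script was tested on simulated data. Lists were described by counts, medians and sums. TPM keeps no depth, so precision was judged from the spread between libraries.

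Values in every library were given, by rule, for the highest member of each step, *Sqle*, members and listed genes at an unadjusted p under 0.05, and the genes at the filter. *Tm7sf2*, *Rce1*, *Lss*, *Sc5d*, *Pcyox1*, *Mvk*, *Msmo1*, *Lbr*, *Hmgcs1* and *Myog* were described after their values were seen. Alternatives were a pseudocount of 0.1, no filter, a mean of at least 10 TPM, median-of-ratios scaling, quantile normalization, no variance trend, a replicate block and each library left out. Promoters were RefSeq windows on GRCm38.p6. Python 3.11.15 with pandas 2.3.3 and matplotlib 3.10.9 made the descriptions and plots. The values of some genes are not reported here, although they are counted among the members and lists.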

Additional observations from a re-analysis of the deposited data

How the results depend on the processing

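TPM keeps no read counts, so no count test was run, and with 3 libraries a genotype differences inside the intervals given would not be seen. At an adjusted p under 0.05 (limma) 0 members were called under all 13 alternatives, and the median log2 fold change of the members stayed between -0.010 and 0.014 with a library left out.

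The count of members at an unadjusted p under 0.05 was 0, and became 1 with no filter (*Soat2*, log2 fold change 0.14, at 0.03 to 0.26 TPM) and 1 with the replicate number as a block (*Tm7sf2*, log2 fold change 0.42). It ranged from 0 to 1 with a library left out, with *Tm7sf2* called without WT replicate 1 and *Pcyox1* without WT replicate 2. The replicate block brought the count over all genes from 490 to 380 and made *Mbtps2* (-0.14) miss the threshold. Libraries with the same number did not deviate together (correlations of -0.041, -0.058 and -0.088), so the numbers were not taken as pairs.

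Over all genes, 281 had an unadjusted p under 0.05 at a mean of at least 10 TPM (fewer genes tested), 890 with no filter (more genes tested), and from 456 (without WT replicate 2) to 611 (without *Ltf*-KO replicate 3) with a library left out. At an adjusted p it ranged from 0 to 6, with 6 without WT replicate 2.

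The sign of small differences was not stable. Median-of-ratios scaling turned the log2 fold changes of *Fdps* (-0.01) and *Zmpste24* (-0.0042) below 0, and quantile normalization that of *Zmpste24* (-0.0030). With a library left out, the log2 fold change crossed 0 for *Fdps* (-0.045 to 0.044), *Idi1* (-0.0082 to 0.12), *Insig1* (-0.0017 to 0.088), *Nus1* (-0.019 to 0.10), *Pcyox1* (-0.24 to 0.0020), *Soat1* (-0.092 to 0.074), *Srebf1* (-0.026 to 0.079), *Srebf2* (-0.014 to 0.035) and *Zmpste24* (-0.010 to 0.019). The cause was not tested.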
